A study of Sus scrofa with 6 samples.

Results

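The BCKDHB locus was taken as 200 kb of chromosome 1, from 90702001 to 90902000 in the coordinates of Sscrofa9.2, around a site of 218 bp that lies in the window chr1:90802001-90803000. The study's list of differentially methylated regions (DMRs) places this site in an intron of BCKDHB (ENSSSCG00000004465). The site was chosen by its read depth in these same libraries, where the MA pigs had nearly lost it, so its difference with age is given as a description, with no test. The locus held 200 of the 2262515 windows of 1 kb on the placed chromosomes, and 197 of them lay more than 1 kb from the site.

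BCKDHB encodes the beta subunit of the decarboxylase component of the branched-chain keto acid dehydrogenase, a complex of the mitochondrial matrix. Leucine, isoleucine and valine are first transaminated to keto acids, and this complex then carries out the committed, irreversible step of their breakdown. Skeletal muscle is a main site of the transamination, and inherited loss of the complex in humans causes maple syrup urine disease. Methylation within introns is common in mammalian genes and can vary with cell type, age and genotype.

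The samples were longissimus dorsi muscle, a back muscle, from female Jinhua pigs, a Chinese breed. There were 3 young pigs (Young, 0.5 years old) and 3 middle-aged pigs (MA, 7 years old), with 1 library per animal and no treatment or transgene in either group. Methylated DNA was captured with an antibody against methylated cytosine and sequenced in pairs (MeDIP-seq), so the depth over a position rises with its methylation and with the number of CpG sites around it. The 2 groups were different animals with no genotypes in the data used here, so an effect of age and a difference in DNA sequence between the animals cannot be told apart at a single site. MeDIP-seq does not measure transcripts, and muscle markers were not checked.

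The libraries held 34801285 to 44341673 fragments, of which 1200 to 1687 had their midpoint in the locus. Counts and depths below were scaled, that is, multiplied by the mean library total and divided by the total of the library. Across the tested 1 kb windows of the genome, pairs of libraries correlated at r = 0.781 to 0.902. The lowest values were those of MA 3 with Young 2 and Young 3. MA 3 was also low with MA 1 (0.808) and MA 2 (0.814). MA 1 and MA 2 correlated at 0.859 to 0.876 with the young libraries, so the low values did not follow age. Between 14.5% and 15.8% of the intervals in a library had the same length of 249 bp, and the sources used here do not state why. The sequence of the site in this build, its CpG positions and the exons of BCKDHB were not analysed here. In a later assembly, Sscrofa11.1, the neighbouring genes of BCKDHB are FAM46A and TTK, and whether all 200 kb lie within BCKDHB was not determined.

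In the young pigs the site was the top of a single narrow peak, and in the MA pigs the peak was nearly missing. The mean scaled depth over the site was 25.0 in Young 1, 22.7 in Young 2 and 17.0 in Young 3. It was 1.78 in MA 1, 3.09 in MA 2 and 1.02 in MA 3. The highest MA value was thus far under the lowest young value, and the groups did not overlap. The young mean was 21.6 ± 4.11 (SD, n = 3) and the MA mean 1.96 ± 1.05 (SD, n = 3), a ratio of 11.0 and a log2 ratio of -3.46. These values chose the site and therefore support nothing further.

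The depth rested on few fragments in the MA pigs. The site was overlapped by 36 fragments in Young 1 (95% Poisson interval 25.2 to 49.8), 27 in Young 2 (17.8 to 39.3) and 21 in Young 3 (13.0 to 32.1). In the MA libraries it was overlapped by 2 fragments in MA 1 (0.242 to 7.22), 3 in MA 2 (0.619 to 8.77) and 1 in MA 3 (0.0253 to 5.57). The intervals of the 3 young libraries overlapped one another, as did those of the 3 MA libraries, so the order within an age is not resolved. The intervals describe the counting error of each library only, and the gap between the ages is what chose the site.

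**Figure D1:**
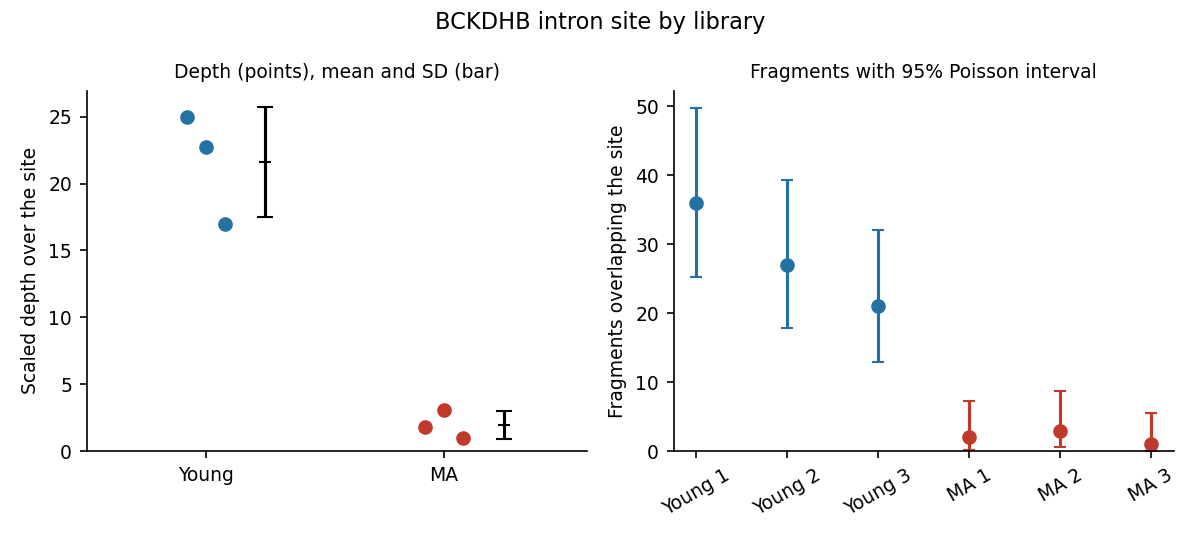
Scaled depth over the BCKDHB intron site by age group (left, points are libraries, with the mean and SD beside them) and the number of fragments that overlap the site in each library with its 95% Poisson interval (right). The young libraries sit between 17.0 and 25.0 in depth and the 3 MA libraries between 1.02 and 3.09.

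The peak of the young pigs was narrow, and whether the fragment length set its width was not tested. Unbroken coverage around the site ran over 670 bp in Young 1, 636 bp in Young 2 and 616 bp in Young 3, with at most 35, 26 and 19 fragments over a position. In bins of 50 bp, the young mean rose from 0 at 90801801 to 26.0 in the bin from 90802201 to 90802250 and fell to 1.96 by the bin from 90802451 to 90802500. The top of the peak thus lay in the latter part of the listed site, and the peak ran beyond the site on both sides.

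All MA libraries lay under all young libraries in 10 bins, from 90801951 to 90802450, a stretch of 500 bp in which the MA mean was also under 0.25 times the young mean. At the left edge, the bin from 90801951 to 90802000 had 0 in each MA library and 1.37, 1.04 and 2.28 in the young libraries. The bin before it had 0 in Young 1 as well, so the groups met there. At the right edge, the bin from 90802401 to 90802450 had 1.79 in MA 1, 0 in MA 2 and MA 3, and 9.45, 5.20 and 6.10 in Young 1 to 3. In the next bin MA 1, at 1.79, exceeded Young 2 and Young 3. The near loss thus covered most of the young peak, and on both sides it ended where the young depth had fallen to a few fragments or fewer per library, so its extent is not well resolved there.

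**Figure D2:**
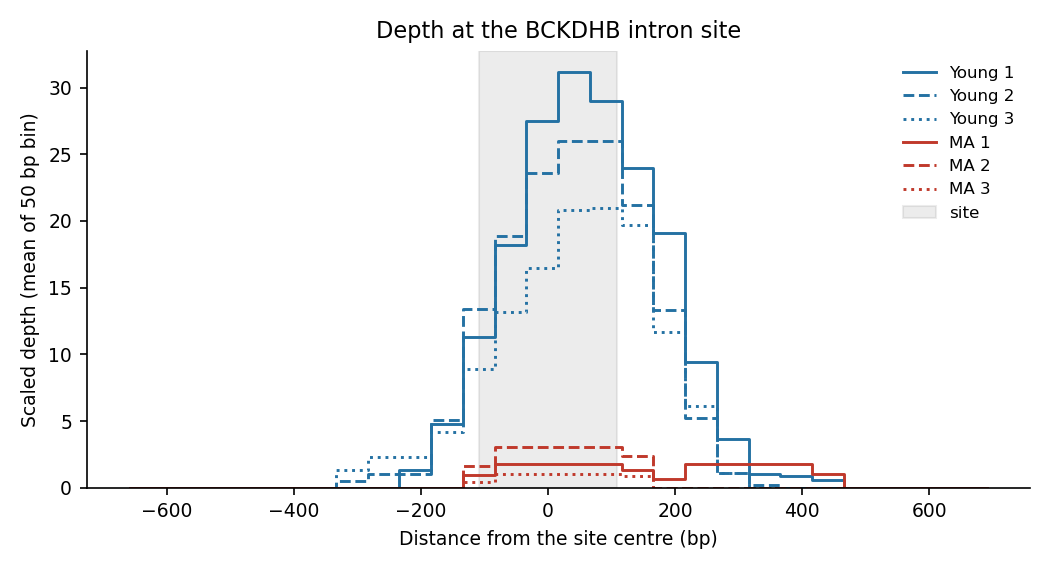
Scaled depth in bins of 50 bp against the distance from the centre of the BCKDHB intron site, with 1 line per library and the listed site shaded. The 3 young libraries form a peak with a mean of 26.0 in its highest bin, while the MA libraries reach at most 3.09.

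The few MA fragments at the site lay almost on top of each other. The 6 of them started within 9 bp, from 90802070 to 90802079, and ended within 7 bp, from 90802336 to 90802343, with lengths of 261 to 269 bp. The 84 young fragments started over 391 bp and ended over 341 bp, with lengths of 144 to 351 bp and a median of 265.5 bp. Only 1 of the 84 had both its start and its end within the ranges of the MA fragments, although 4 started and 6 ended within them. No 2 fragments at the site had the same start and end, within a library or between libraries. This pattern was noticed after the values were seen, it rests on 6 fragments, and its cause was not tested.

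Pairs mapped across the whole site in both ages. It was covered from end to end by 1 fragment in MA 1, 2 in MA 2 and 0 in MA 3, against 6, 11 and 5 in the young libraries. The MA fragments not counted here started just inside the site, at 90802078 in MA 1 and MA 3 and at 90802079 in MA 2. They ran past its far end, so they missed only the first bases of the site. A like count of near misses was not made for the young fragments. The deposited fragments were at most 550 bp long, so a pair that mapped farther apart would not be seen. None of the 6 MA fragments, and 10 of the 84 young fragments, had the frequent length of 249 bp.

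The immediate flanks were as good as empty at both ages. Over 1 kb that ended 300 bp before the site, the number of fragments was 0 in each of the 6 libraries. Over 1 kb that began 300 bp after the site, 2 fragments were found in MA 1, 0 in MA 2, 0 in MA 3 and 1 in each young library. The planned test on log2 depth could not be made there because of the libraries at 0, and no fold is given. To the left, the nearest fragment that did not join the peak ended 3742 to 3832 bp before it in Young 1 and Young 3 and 1224 bp before it in Young 2, and 3050 to 3238 bp before the MA fragments. To the right, MA 1 had further fragments 37 bp beyond those at the site, and in the other libraries the next fragment began 947 to 2515 bp away.

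Within 5 kb, the left side was sparse and the right side covered at both ages. From 90797001 to 90802000, MA 1 to 3 had 4, 3 and 8 fragments and Young 1 to 3 had 10, 8 and 4, some of them belonging to the left slope of the young peak. From 90803001 to 90808000, MA 1 to 3 had 49, 42 and 62 fragments and Young 1 to 3 had 46, 51 and 40. The ages overlapped on the right, where coverage began again 2.71 kb after the site with the window from 90805001 to 90806000. On the left, the nearest window with a mean count of at least 10 ended 27.1 kb before the site. None of the 29 windows between these 2, leaving out the one with the site, had a mean scaled count above 9.53.

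Over the whole 200 kb, the locus was poor in fragments compared with the genome. The mean scaled count per 1 kb window was 6.83 to 8.04 in the locus, where it was 17.5 over the genome, and the median was 2.06 to 3.07 against 6.19 to 7.30. Between 31.0% and 35.5% of its windows were empty in a library, compared with 16.0% to 18.5% of the genome, and 31 windows were empty in all 6 libraries. Fragments were concentrated toward both ends of the locus. The window with the highest count, from 90864001 to 90865000, had scaled counts of 67.9, 72.2 and 56.3 in MA 1 to 3 and 74.8, 79.3 and 61.5 in Young 1 to 3. The next, from 90704001 to 90705000, had an MA mean of 49.1 ± 16.9 (SD, n = 3) and a young mean of 52.5 ± 7.90 (SD, n = 3). The ages overlapped in the 5 windows with the highest counts, with log2 differences of -0.15 to 0.20, MA minus young. In the window that held the site, the young libraries had 37, 27 and 21 fragments and the MA libraries 4, 3 and 1.

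**Figure D3:**
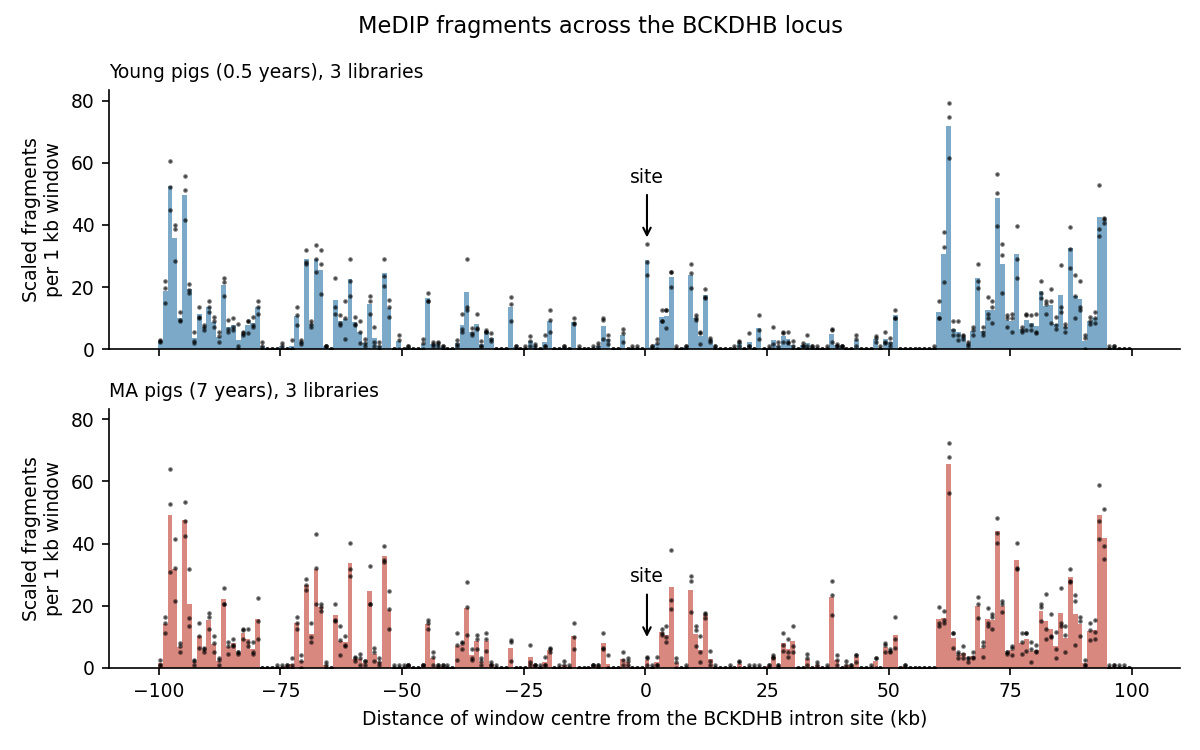
Scaled fragments per 1 kb window against the distance of the window from the BCKDHB intron site in kb, in the young pigs (top) and the MA pigs (bottom), where bars are group means and points are libraries. Most of the tall windows stand at the same places at both ages, while the site is tall in the young pigs only. Some differ in height, such as those 38.3 kb (higher in MA) and 61.3 kb (higher in Young) after the site. The highest, 62.3 kb after the site, has a mean of 71.8 in the young and 65.5 in the MA pigs.

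The flanks as a whole stayed covered in the MA pigs. Summed over the 197 windows outside the site, the scaled fragments came to 1385, 1438 and 1607 for MA 1 to 3 and to 1505, 1528 and 1341 for Young 1 to 3. The groups overlapped, and their mean log2 values differed by 0.018 (two-sided exact permutation test, p = 0.9, where 3 against 3 cannot go below 0.1). Before the site the MA sum averaged 696 ± 49.8 (SD, n = 3) and the young sum 688 ± 36.2 (SD, n = 3). After the site they averaged 781 ± 66.2 and 770 ± 66.5. These sums rested mainly on the outer parts of the locus. The outermost 20 kb before and after the site averaged 283 and 265 in MA and 298 and 261 in Young. The 20 kb next to the site, without the windows left out, averaged 33.4 and 115 in MA and 36.6 and 109 in Young. The sums therefore say little about the DNA close to the site. In the block of 20 kb from 90822001 to 90842000, the scaled fragments came to 53.6, 61.9 and 58.3 for MA 1 to 3 and to 44.7, 38.6 and 17.1 for Young 1 to 3. The block holds the windows from 90825001, 90832001 and 90840001 that are described below, so it is not a separate observation. It was named after the values of 10 such blocks were seen, and no share of such blocks over the genome was computed, so nothing is read from it.

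Window by window, of the 49 outside the site with a mean count of at least 10, limma found 0 with a Benjamini-Hochberg adjusted p under the threshold of 0.01, adjusted over 956330 windows of the genome, of which it called 0.00251%. The smallest adjusted p outside the site was 0.202. At an unadjusted p below 0.05, limma had 6 of the 49 (12.2%, compared with 7.31% of the windows of the genome), and with voom weights 5 of the 49 (compared with 7.13%), with 0 called. The groups did not overlap in 7 of the 49 (14.3%, compared with 13.3% of the genome). In 3 of them the MA libraries were the lower ones (6.12%, compared with 5.84%), and in 4 they were the higher ones (8.16%, compared with 7.51%). Which direction was the more frequent changed with the filter and with the libraries used, so no direction is read from these counts. The log2 difference was negative in 24 windows and positive in 25, with a median of 0.032, where the median of the genome was 0.018. The window with the site reached the mean count of 10 through its young libraries (37, 27 and 21 fragments, against 4, 3 and 1 in MA 1 to 3). Of the 956330 windows at that count, 0.0374% had all MA libraries under all young libraries and an MA mean under 0.25 times the young mean. This share describes the contrast that chose the site, leaves out sparser windows and supports nothing further.

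**Figure D4:**
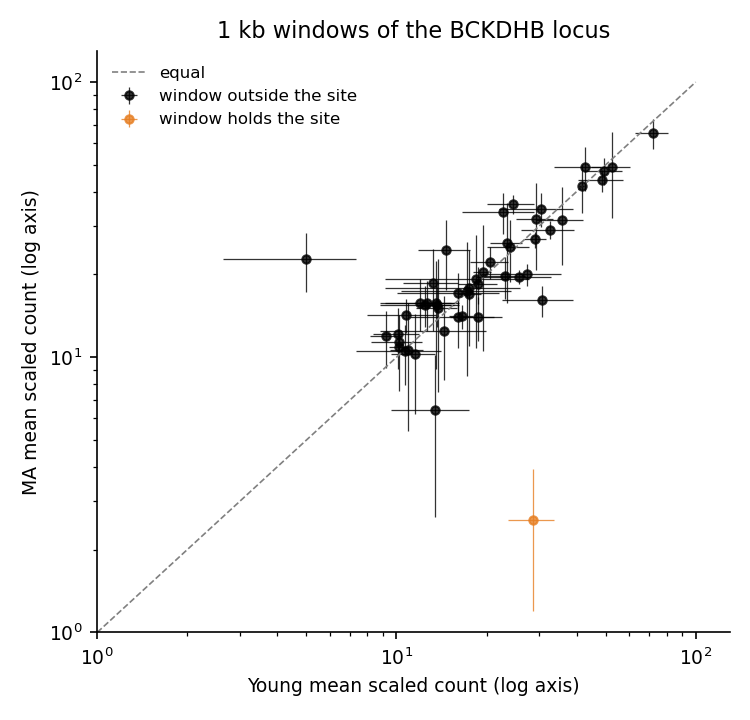
MA mean against young mean of the scaled count, both on log axes, for the 50 windows of 1 kb in the BCKDHB locus with a mean count of at least 10, with bars of 1 SD over 3 libraries. The window with the site lies at 28.6 in the young and 2.56 in the MA pigs, and most others lie near the line of equal values.

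Among the 49 tested windows, the largest difference outside the site went in the opposite direction. In the window from 90840001 to 90841000, 38.3 kb after the site, MA 1 to 3 had 19, 27 and 23 fragments and Young 1 to 3 had 7, 6 and 2. The lowest MA value was above the highest young value. The scaled count averaged 22.8 ± 5.48 (SD, n = 3) in MA and 4.97 ± 2.34 (SD, n = 3) in Young, a log2 difference of 2.06 (standard error 0.397) that did not pass the threshold (limma adjusted p = 0.202). This window was named as the largest increase of 49, so its size is a selected value.

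This second peak was as narrow as the first and present at both ages. In bins of 50 bp, all MA libraries exceeded all young libraries over 500 bp, from 90840601 to 90841100, and the highest bin had a mean depth of 21.1 in the MA and 5.05 in the young pigs. At that bin, from 90840901 to 90840950, the depth was 16.6, 26.8 and 19.8 in MA 1 to 3 and 5.47, 6.26 and 3.41 in Young 1 to 3. On its outer sides the depth was 0 in all 6 libraries, as beside the site. Young 3, the lowest of the 6, rested on few fragments here, as the MA libraries did at the site.

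**Figure D5:**
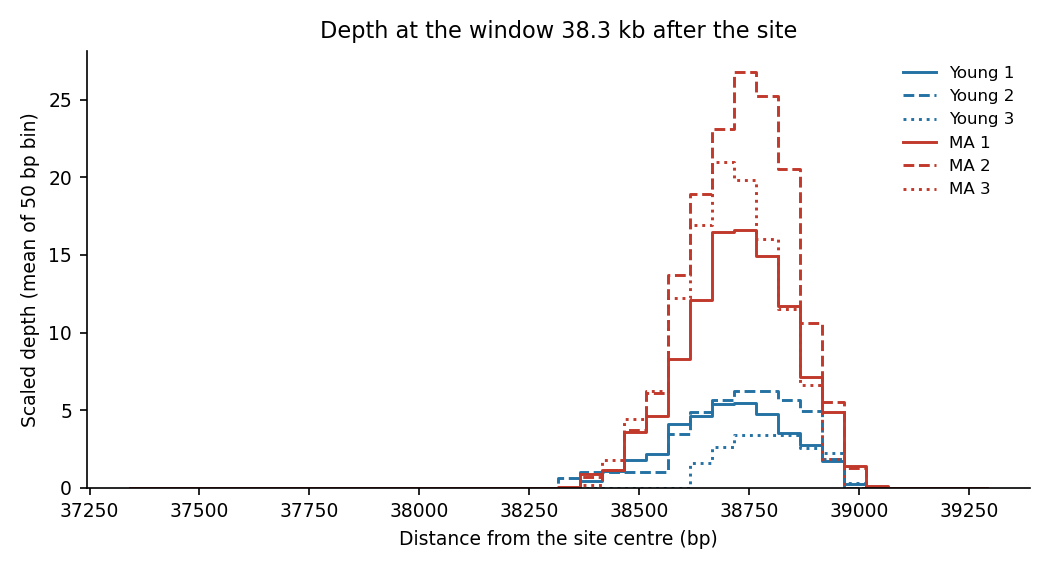
Scaled depth in bins of 50 bp against the distance from the centre of the BCKDHB intron site, around the window 38.3 kb after it, with 1 line per library. All 6 libraries have a peak at the same place, whose highest bin has a mean of 21.1 in the MA and 5.05 in the young pigs.

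The other windows named as the largest increases lay before the site. From 90745001 to 90746000, MA 1 to 3 had 23, 20 and 32 fragments and Young 1 to 3 had 17, 11 and 15, a log2 difference of 0.69 (limma adjusted p = 0.637). From 90741001 to 90742000, MA 1 to 3 had 33, 39 and 31 fragments and Young 1 to 3 had 32, 21 and 15, with a log2 difference of 0.57 (limma adjusted p = 0.664). The groups did not overlap after scaling in either, but by a small margin, and neither passed the threshold.

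Among the largest decreases, the window from 90863001 to 90864000, beside the densest window of the locus, had 16, 15 and 18 fragments in MA 1 to 3 and 36, 36 and 19 in Young 1 to 3. Its log2 difference was -0.86 (limma adjusted p = 0.501). From 90774001 to 90775000, MA 1 to 3 had 10, 8 and 2 fragments and Young 1 to 3 had 16, 16 and 8, with a log2 difference of -1.11 (limma adjusted p = 0.672). That window met the count filter through its young libraries. Its groups were apart by little, at scaled counts of 8.93 in MA 1 and 9.10 in Young 3, and its log2 difference was -0.55 without MA 3. In the window from 90703001 to 90704000 the groups overlapped, at a log2 difference of -0.40 that was -0.06 without the most frequent fragment length and -0.27 without MA 2. The site window, with an MA mean of 2.56 and a young mean of 28.6, had the largest decrease among the 50 windows whose mean count reached 10, as its choice implies.

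Among the windows below that count, 2 are given as examples picked after their values were seen. Neither a test nor a share over the genome is given for them here. From 90825001 to 90826000, 23.3 kb after the site, MA 1 to 3 had 0, 1 and 0 fragments and Young 1 to 3 had 12, 6 and 3. This was a near loss in the same direction as at the site, on fewer fragments. From 90832001 to 90833000, 30.3 kb after the site, MA 1 to 3 had 15, 5 and 7 fragments and Young 1 to 3 had 3, 1 and 0, the opposite direction.

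Across the 49 windows, the MA and young means correlated at r = 0.826 on the log2 scale, and pairs of libraries at 0.619 to 0.884. These windows share their libraries and depths, and the values are a description of how alike the profiles were.

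Of 26 other genes of branched-chain amino acid breakdown, 2 were paired with a DMR in the part of the study's list that was used here, which holds 1838 distinct DMRs. The list was held only in part and the share of all genes with a DMR was not computed, so the count cannot be read as many or few. Both sites lay in introns, and both had been chosen on these samples, so they are no independent evidence of a direction. PCCA encodes a subunit of propionyl-CoA carboxylase, which handles the propionyl-CoA from isoleucine and valine. At chr11:70059760-70059882 its depth was 36.5, 31.3 and 27.7 in MA 1 to 3 and 53.0, 54.1 and 59.8 in Young 1 to 3. HIBADH encodes 3-hydroxyisobutyrate dehydrogenase of valine breakdown. At chr18:43582871-43582970 its depth was 21.1, 24.4 and 28.3 in MA 1 to 3 and 46.7, 44.6 and 39.8 in Young 1 to 3.

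At both pathway sites all MA libraries were lower than all young ones. The log2 ratio of the means was -0.81 at PCCA and -0.83 at HIBADH, compared with -3.46 at BCKDHB. The difference between these sites was not tested. The remaining 24 genes, among them BCKDHA and DBT, which encode other subunits of the complex, and its kinase BCKDK, had no DMR in the part of the list used. This says nothing about their methylation.

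Among the listed DMRs whose 6 depths were most like the BCKDHB site were those in introns of PPP3CC, GNA13, LMBR1 and SLC6A6. Likeness was the root mean square difference of log2(scaled depth + 1) over the 6 libraries, which was 0.261 for PPP3CC, 0.454 for GNA13, 0.489 for LMBR1 and 0.537 for SLC6A6. The PPP3CC site, at chr14:6723509-6723563, had depths of 1.77, 3.71 and 1.36 in MA 1 to 3 and 21.2, 15.6 and 17.5 in Young 1 to 3. PPP3CC encodes a catalytic subunit of calcineurin. Its MA libraries stood in the same order as at BCKDHB, with MA 2 highest and MA 3 lowest, but likeness over these same values chose it. That order is not resolved at BCKDHB. It was the same at LMBR1, but MA 1 was highest at SLC6A6 (5.25, 2.75 and 1.34 in MA 1 to 3). At GNA13, MA 1 was lowest (0.592, 2.42 and 0.897). SLC6A6, the taurine transporter, had an MA mean of 3.11 ± 1.98 (SD, n = 3) and a young mean of 21.6 ± 3.39 (SD, n = 3) at chr13:58374079-58374291. All 4 were chosen by the same contrast as the BCKDHB site, and their likeness is a description.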

How the data were processed

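MeDIP-seq libraries of 3 MA and 3 young pigs were used, grouped by their sample titles. The authors filtered the paired reads on quality and aligned them to Sscrofa9.2 with SOAP2 2.21 (up to 4 mismatches). They state that reads with ambiguous positions were left out and that reads at 1 position were treated as 1 read. The deposited files list fragment positions and hold no counts, depth or other signal. Between 471491 and 706017 intervals of a library repeat another of that library and were kept. Positions were read as counted from 1 with both ends included.

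Midpoints were counted in windows of 1 kb and depth was averaged in bins of 50 bp, scaled to total fragments. Windows whose count averaged 10 or more were fitted over the placed chromosomes with limma 3.58.1 in R 4.3.3 (lmFit, eBayes with a trend, group only) on log2(scaled count + 1). The p-values were adjusted by the Benjamini-Hochberg method and called below 0.01. Single values were compared by two-sided exact permutation tests over the 20 assignments of 6 libraries to 3 and 3. The near-flank depths, for which that test was planned on the log2 scale, were given without a test. Python 3.11.15 with numpy 2.4.6, scipy 1.17.1 and pandas 2.3.3 was used, with matplotlib 3.10.9 for figures. The steps were tested on simulated data.

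Windows outside the site were named as the 3 largest log2 differences in each direction and the 5 highest mean counts. Names of DMRs come from the study's list, whose first part was used, and its depths and p-values were not. Of the DMRs most like the site, 1 is not reported here. The locus, the lists and the rules were chosen with earlier results of these data known. Alternatives covered scaling (TMM with code written here, median), repeated intervals, the most frequent length, the count filter, window size, pseudocount, voom weights, threshold, the replicate number as a block, flank and reach definitions, and leaving out each library. The replicate number was not used as a pairing in the main tests. In the block alternative, the flank fragments were compared by flipping the signs of the 3 paired differences. With 1 to 36 fragments per library at the site, counting error limits the precision, and an empty flank does not show that its DNA was unmethylated.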

Additional observations from a re-analysis of the deposited data

How the results depend on the processing

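The log2 ratio of the site depth was -3.95 to -3.15 over 11 alternatives, a direction that the choice of the site fixed, and the reach of the near loss was 492 to 600 bp over 12. No window outside the site was called under any of 18 alternatives of the limma fit, where the smallest adjusted p was 0.0825 (windows of 5 kb) to 0.661 (a mean count of at least 30). The window 38.3 kb after the site kept a positive log2 difference of 1.49 to 2.26 in the fits of 1 kb windows, with adjusted p-values of 0.110 to 0.607. The number of windows outside the site whose groups did not overlap was 19 of 167 with no filter and 1 of 11 at a mean count of at least 30, since more and fewer windows were then compared. Leaving out each library gave 7 to 13, where fewer libraries overlap less often. It was 12 without MA 1, 11 without MA 3, 12 without Young 2 and 13 without Young 3. The split of lower and higher windows, 3 and 4 with all libraries, was 3 and 9 without MA 1, 3 and 9 without Young 2, 7 and 4 without MA 3, 8 and 5 without Young 3, and 11 and 8 with no filter. Median scaling gave 4 and 4. Genome shares under these settings are not given here, so the counts describe the split only. The window from 90774001 gave -0.55 without MA 3 and -0.74 with a pseudocount of 5, and it missed the count filter without Young 1, without Young 2 and without the most frequent length. The log2 difference of the flank fragments changed sign with median scaling (-0.0207), with mean depth in place of midpoint counts (-0.0331), without MA 3 and without Young 3, and leaving out each library gave -0.0445 to 0.0626. The cause was not tested, and exact permutation p-values were at least 0.5 with these 2 settings and 0.6 and 0.7 without these libraries. With flanks of 2 kb and 500 bp of guard, the depth differed by -0.0579 on the left and 0.0316 on the right (MA minus young), from 0 and -0.0909, and without the most frequent length the right flank differed by 0.0202. These depths rest on at most 5 fragments per library. Over the tested windows, the deviations of libraries of the same number from their group means correlated at r = -0.215, 0.0760 and -0.188. Those of MA and young libraries of unlike number correlated at -0.146 to 0.301. The sample titles state no pairing, so the replicate block is only an alternative. With the replicate block, limma called 0 windows outside the site. The flank fragments then differed by 0.018 (exact sign-flip permutation p = 1, where 3 pairs cannot give a small p). Over the genome, limma called 24 windows, 7 of them lower in MA. It called 204 at a threshold of 0.05, 177 with no filter, 84 with a pseudocount of 5, 52 in windows of 5 kb, 38 without the most frequent length, 15 with TMM factors and 14 with median scaling (2 lower in each of these scalings). It called 0 with voom weights, with the replicate block, in windows of 500 bp and at a mean count of at least 30, and 0 to 215 when a library was left out.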
